A study of Kluyveromyces marxianus with 6 samples.

Results

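Of the 14298 transfrags listed for *Kluyveromyces marxianus*, 6 are described here: the sense and antisense transcripts of 3 glycolysis genes. A transfrag is a stretch of 1 strand covered by reads and annotated as 1 transcript. The genes were phosphofructokinase (PFK), the glyceraldehyde-3-phosphate dehydrogenase (GAPDH) copy on contig 104, and enolase (ENO). The sense transfrags belong to 5785 mRNAs, and the antisense ones to 3067 lancRNAs, long antisense non-coding RNAs of at least 200 nt. The study had singled out these antisense RNAs for differential expression on the same libraries, so the direction of their change is not independent evidence.

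Glycolysis turns a hexose into pyruvate, and in yeasts most of its enzymes are made from very abundant mRNAs. PFK adds the second phosphate to the sugar and is the committed step of the upper part of the pathway, whereas GAPDH and ENO act in the lower part, on the triose intermediates. An antisense RNA is copied from the opposite strand of a gene, and in yeasts such RNAs are common, mostly scarce, and often begin near the 3' end of the gene they oppose.

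The libraries came from strain ATCC 36907 (KM7), for which no engineered allele is given, grown with dextrose as the sugar in a synthetic medium lacking uracil. Cultures were sampled in early, mid and late exponential phase (EE, ME and LE), at optical densities near 3, 7 and 10, with 2 biological replicates per phase and no other treatment. RNA was depleted of rRNA and sequenced so that the strand of each read was kept. The deposited level is a normalized read signal, the authors' mean of the 2 libraries of a phase. The table used here gives these phase means only, so the changes below carry no test, and an error given with them is the counting error (SE) of the reads estimated behind a level. The level that 3 reads give, if all lie in the library where a read weighs more, was 4 (EE), 1.09 (ME) and 1.19 (LE), so EE levels are the least precise. Where the EE mean could be split into its libraries (8160 levels up to 12), the variance between the libraries was 2.37 times that of counting. Errors at such low levels would be 1.54 times wider. At higher levels the spread between libraries is not known, so a gap of many counting SE does not show that an order holds between cultures.

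The sense transcripts of the lower pathway were among the most abundant mRNAs in every phase. GAPDH mRNA (transfrag08631, contig 104, minus strand, 130321 to 131330, in the contigs of the draft assembly the study used) had a level of 165700 in EE, against 103920 in ME and 130727 in LE. It ranked 3rd, 2nd and 2nd of the 5785 mRNAs, and first, 2nd and 2nd once levels were divided by length. In EE it differed from the mRNA ranked above it, PGK, by 0.0767 counting SE, so their order was not resolved. It held 4.41% of the summed mRNA level in EE, then 3.51% (ME) and 3.15% (LE). The study's mapping placed reads that match several sites at random, so reads shared with the other GAPDH gene of the genome cannot be assigned to 1 copy.

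ENO mRNA (transfrag06512, contig 103, minus strand, 745224 to 746537) had levels of 97608, 42981 and 53554, at ranks 6, 5 and 6. Its share of the summed mRNA level was 2.60%, 1.45% and 1.29%. Its rank per kb was 6, 7 and 7, and each gap to the mRNAs next in rank was more than 5 counting SE.

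PFK mRNA was scarcer than both. The transfrag (transfrag09614, contig 105, plus strand, 214451 to 218085) matches K6PF2, a subunit of the enzyme, and had levels of 6513, 11323 and 13478. It ranked 99, 30 and 42 by level, and, as the longest of the sense transcripts at 3635 bp, 221, 72 and 92 per kb. In EE it was within 0.635 counting SE of both mRNAs next in rank. In ME and LE the nearest lay 3.45 and 2.80 counting SE away.

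**Figure D1:**
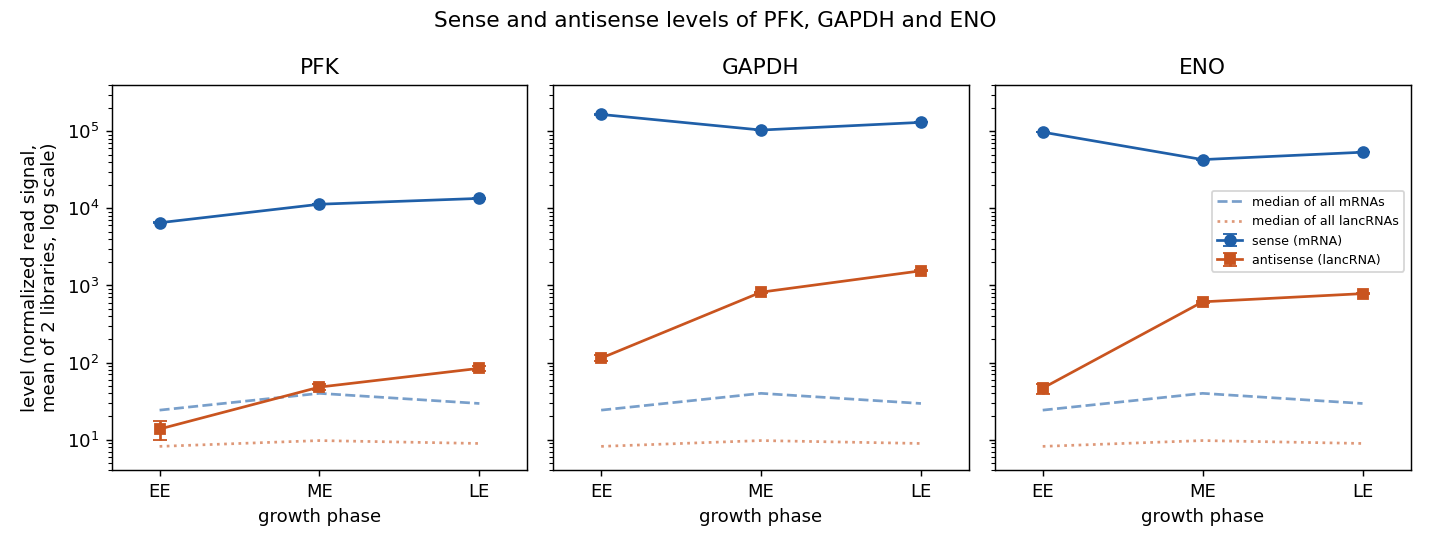
Level (normalized read signal, mean of 2 libraries, log axis) of the sense mRNA and the antisense lancRNA of PFK, GAPDH and ENO in EE, ME and LE, with bars of 1 counting SE and the class medians as dashed and dotted lines. Antisense levels were higher in ME and LE than in EE at each locus (PFK 13.7, 48.0 and 84.1), while sense levels by this scaling were higher for PFK only. Scaled by mapped reads, the GAPDH change and the ENO change in ME turn positive.

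The antisense transcripts were far scarcer than the mRNAs opposite them and, at GAPDH and ENO, well above most lancRNAs, whose median level was 8.16, 9.71 and 8.90 in the phases in that order. The GAPDH antisense (transfrag07726, plus strand, 130321 to 131316) had levels of 114, 818 and 1549. It ranked 140 of 3067 lancRNAs in EE but 25 and 16 in ME and LE, and 148, 21 and 12 per kb. In LE its level per kb was 1555, which is above the level per kb of most mRNAs (median 47.9).

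The ENO antisense (transfrag04327, plus strand, 744957 to 746548) had levels of 46.5, 613 and 783. It ranked 303, 38 and 41, and 1078, 58 and 60 per kb. Between EE and ME it thus passed most of the lancRNAs that had been above it, and from ME to LE it held its place. Its neighbours in rank in ME and LE were within 1.30 counting SE.

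The PFK antisense (transfrag11376, minus strand, 215081 to 216570) had levels of 13.7, 48.0 and 84.1. It tied with other lancRNAs at rank 970 in EE and ranked 553 in ME and 440 in LE. Because it is 1490 bp long, its level per kb was only 9.17, 32.2 and 56.5, at ranks 2551, 1240 and 857. In EE it lay below the lancRNA median per kb of 21.5, and in LE above that of 22.4. The EE mean corresponded to 8 reads in one library and 6 in the other, scaled levels of 11.3 and 16. Of the 3, its change rests on the fewest EE reads.

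All 3 antisense transcripts were over 2-fold higher in ME and in LE than in EE (on level + 1), against a background of 34.3% of all lancRNAs in ME and 37.1% in LE. Among lancRNAs with a mean level of at least 10, as all 3 have, the background was 51.8% and 58.1%, so that most lancRNAs of this abundance passed the same line. That mean includes ME and LE, so the filter does not match lancRNAs by EE level and depends in part on the change itself. The same holds for mRNAs of that mean level below. The ENO antisense changed most, by 3.69 (counting SE 0.21) in ME and 4.04 (SE 0.21) in LE on the log2 scale. The GAPDH antisense changed by 2.83 (SE 0.14) and 3.75 (SE 0.14). The PFK antisense changed by 1.74 (SE 0.38) and 2.54 (SE 0.38). In ME these changes exceeded those of 97.4%, 92.8% and 78.8% of lancRNAs, and in LE those of 97.8%, 96.5% and 87.9%.

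From ME to LE the loci parted. The GAPDH antisense gained a further 0.92 (SE 0.036) and the PFK antisense 0.80 (SE 0.15) on the log2 scale, positive under each scaling tried. The ENO antisense gained 0.35 (SE 0.045), which turned to -0.10, -0.08 and -0.19 when levels were scaled by their sum, by their sum without the 100 highest transfrags, or by mapped reads. None of the 3 reached a 2-fold difference between ME and LE, a line that 7.08% of lancRNAs passed upwards.

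The sense transcripts changed less, and not in 1 direction. ENO mRNA was the only one of the 3 called lower in ME (log2 change -1.18; background 31% of mRNAs), and PFK mRNA the only one called higher in LE (1.05; background 34.2%). Among mRNAs with a mean level of at least 10, 21.9% were lower in ME and 47.5% higher in LE, and PFK ranked 1874 of 4021 by its LE change. PFK mRNA was 0.80 higher in ME. GAPDH mRNA changed by -0.67 in ME and -0.34 in LE, and ENO mRNA by -0.87 in LE. Of the 3 scalings tried, only that by mapped reads changed a sign against EE. Scaled by the summed level, GAPDH mRNA changed by -0.41 in ME and -0.53 in LE. Without the 100 highest transfrags in the sum it changed by -0.86 and -0.96. When levels were scaled by mapped reads, GAPDH mRNA was higher by 0.63 in ME and 0.42 in LE, ENO mRNA was at 0.12 and -0.10, and PFK mRNA was higher by 2.10 and 1.82. That scaling moves every transfrag by 1.30 in ME and 0.77 in LE. The reads estimated on transfrags were 18.9% of mapped reads in EE, but 39% in ME and 36.7% in LE. The study itself reported most reads on the sense strand of genes in each phase, a larger share that rose only modestly from EE. The reason for this difference was not tested, and the counting errors rest on the same read estimates. For the 3 antisense transcripts no scaling changed the direction against EE.

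The ratio of the antisense to the sense level of 1 locus does not depend on a factor common to both libraries of a phase, as in the 3 scalings tried. It can still depend on how the 2 libraries of a phase were scaled against each other. At ENO the antisense was 0.0476% of the sense level in EE, but 1.43% and 1.46% in ME and LE, a ratio 30.0 and 30.7 times that of EE. At GAPDH it was 0.0689%, 0.787% and 1.18%, which is 11.4 and 17.2 times. At PFK it was 0.21%, 0.424% and 0.624% for transfrag11376 alone, which is 2.02 and 2.98 times. On the log2 scale these changes were 4.90 and 4.94 at ENO (counting SE 0.22), 3.51 and 4.10 at GAPDH (SE 0.14), and 1.01 and 1.57 at PFK (SE 0.41). In LE the antisense was thus still below 2% of the mRNA at each locus.

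**Figure D2:**
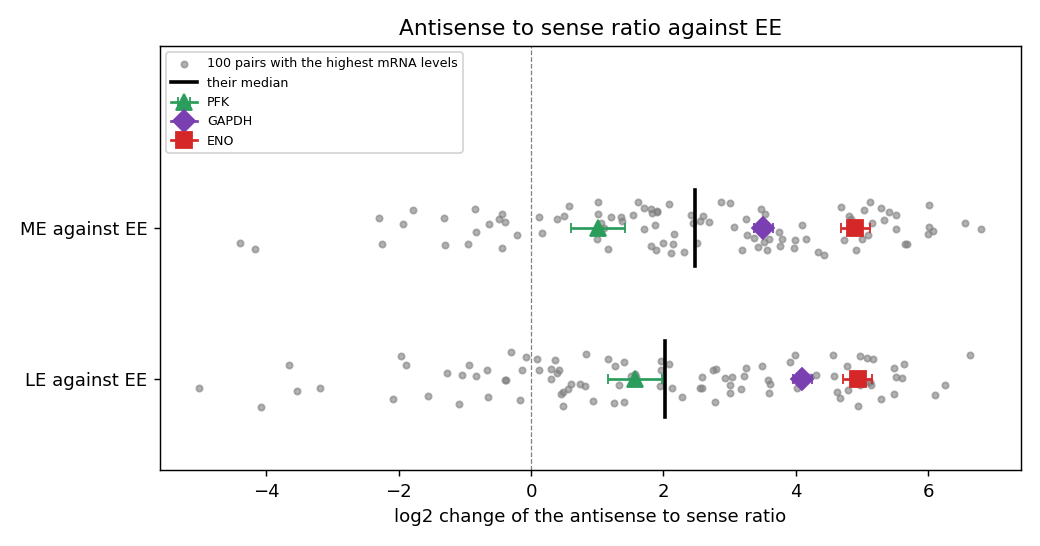
Log2 change from EE of the antisense to sense ratio (horizontal axis) in ME and LE for the 100 pairs with the highest mRNA levels (grey points, spread vertically for legibility), with their median (black line: 2.48 in ME, 2.02 in LE) and PFK, GAPDH and ENO with bars of 1 counting SE. PFK lies below the median in both phases, GAPDH and ENO above it.

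A higher ratio in ME and LE was common at abundant mRNAs. Over the 1459 mRNA and lancRNA pairs with more than 3 reads in each level, the median log2 change of the ratio was -0.24 in ME and -0.53 in LE. Over the 100 of them with the highest mRNA levels the median was 2.48 in ME and 2.02 in LE, and the ratio was higher than in EE at 83 and 78 of the 100. ENO exceeded 81 and 83 of these 100, GAPDH 63 and 74, and PFK 23 and 45. Among these 100 pairs, GAPDH and ENO were thus in the upper part of the distribution, and PFK was below its middle. The 100 include the 3 pairs themselves and count an mRNA again for each further lancRNA opposite it. Many of their mRNAs are far less abundant than those of GAPDH and ENO.

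Reads of a very abundant mRNA that are assigned to the wrong strand would also appear as antisense. Their part in these levels was not tested. Of the 20 highest mRNAs in each phase, 18 had a lancRNA opposite and 2 had no listed opposite transfrag. One of these was PGK (transfrag06296), whose EE level of 165744 was within 0.0767 counting SE of that of GAPDH. The 5th percentile of the ratio over the 100 pairs of highest mRNA level was 0.0101% (EE), 0.0337% (ME) and 0.0209% (LE). Subtracting that share of the sense level left 97.4, 783 and 1522 for the GAPDH antisense, 36.6, 599 and 771 for ENO, and 13.0, 44.2 and 81.3 for PFK.

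A larger share was tried after the data were seen, from mRNAs covered over at least 50% of their length, at 0.0831%, 0.298% and 0.351% in EE, ME and LE. It left 0 in EE for GAPDH and ENO, but 509 and 1090 for GAPDH, and 485 and 595 for ENO, in ME and LE. For PFK it left 8.25, 14.3 and 36.8, a log2 change of 0.72 in ME, below the 2-fold line. There the summed share was taken from transfrag11376 alone, although 4 lancRNAs lie opposite PFK, so unlike quantities were set against each other.

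The 3 antisense transcripts began and ended at different places against their genes. The GAPDH antisense ran over the whole gene model: its first and last bases are the last and first of the 996-bp model, and it stopped 14 bases short of the start of the sense transfrag. It covered 98.6% of the sense transfrag, whose 3' end is also that of the gene model. The study divided joined transfrags at gene boundaries, so ends that coincide with a gene model may be set by the annotation and not by the RNA.

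The ENO antisense was longer than its gene, with 1592 bp against 1314. It began 267 bases beyond the 3' end of the sense transfrag and ended 11 bases beyond its 5' end, so that all of that transfrag was covered. Both ends of the ENO sense transfrag are those of the gene model. They too may be set by the annotation, so the distances from the ends of the mRNA itself are not known. The PFK antisense lay inside its gene. It began 1515 bases before the 3' end of the sense transfrag, ended 630 bases after its 5' end, and reached to 7 bases inside the first base of the gene model. It covered 41% of the sense transfrag, 52.9% of the gene model and none of the 623-base leader.

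Complete cover is unusual among such pairs. Of 2374 pairs of mRNAs and lancRNAs that overlap by at least 1 bp, 124 (5.22%) had the whole mRNA covered and 143 (6.02%) at least 98% of it. A cover of at least 41%, as at PFK, was found in 854 pairs (36%), and the median was 29.6%.

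**Figure D3:**
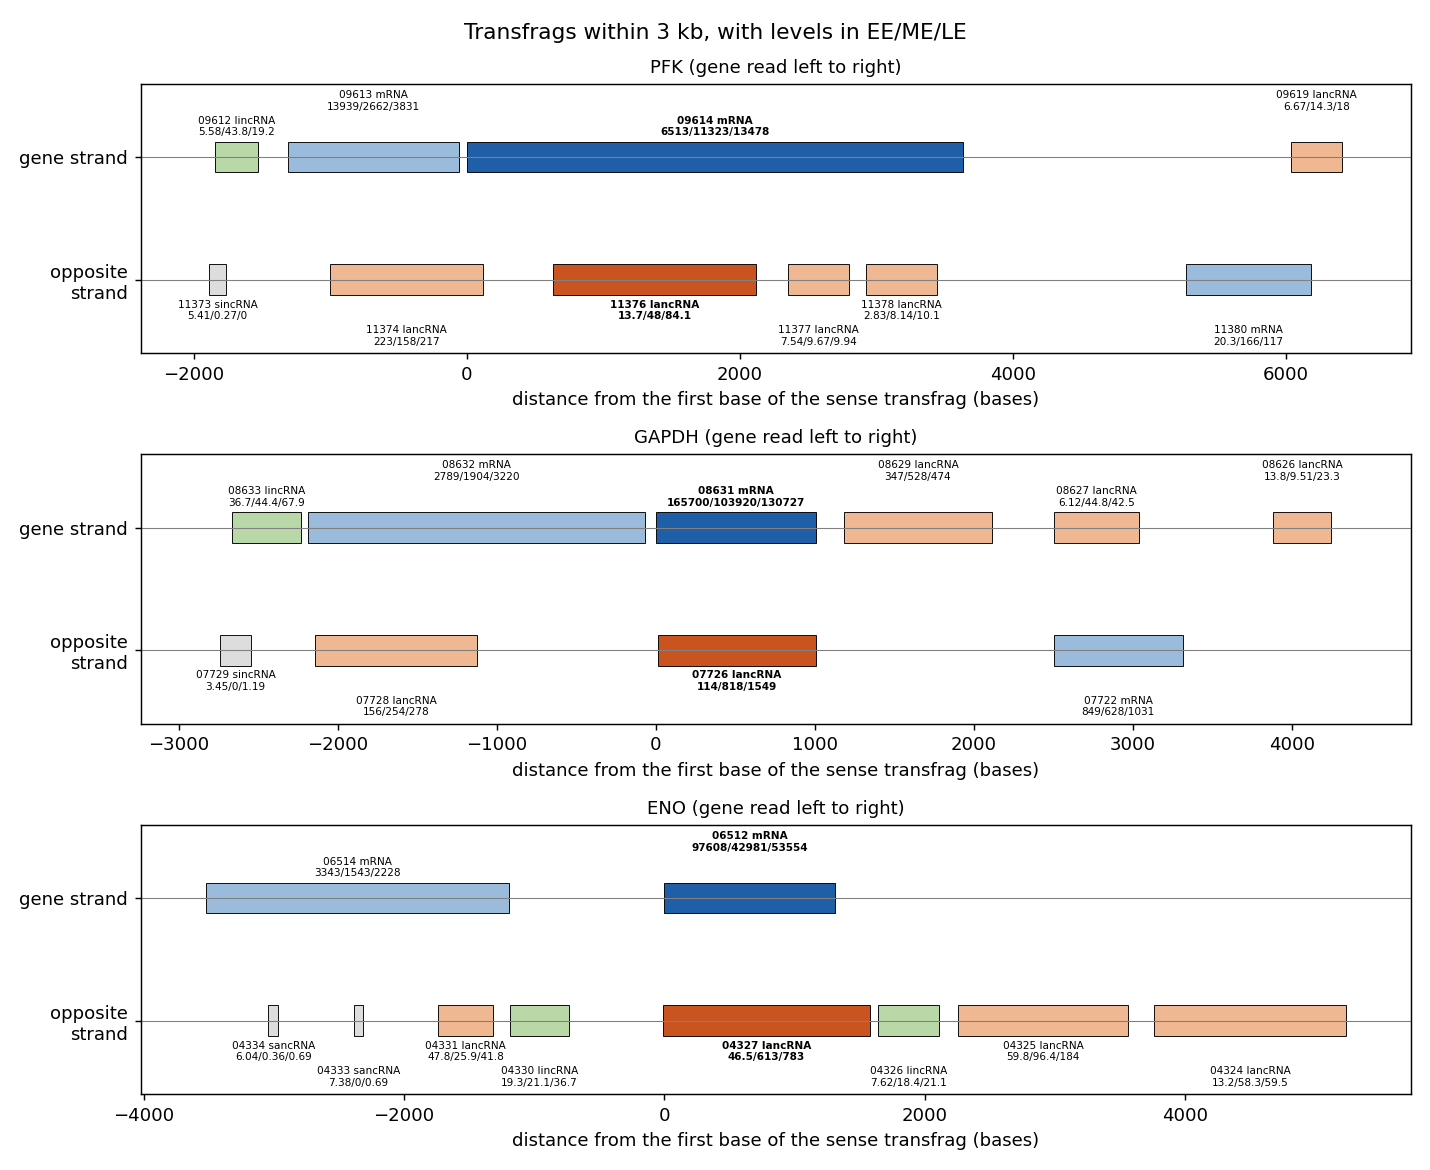
Transfrags within 3 kb of each sense transfrag, drawn to scale by distance in bases from its first base, with the gene read left to right. The upper line of each map is the gene strand and the lower line the opposite strand. Dark blue marks the sense mRNA and dark orange its antisense, and pale blue, orange, green and grey mark other mRNAs, lancRNAs, lincRNAs and small RNAs, each with its levels in EE, ME and LE. The ENO antisense spans its gene, that of GAPDH stops 14 bases short, and that of PFK lies inside.

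Besides each pair, 8 transfrags lay within 3 kb of each gene. At PFK, 5 of the 8 were on the opposite strand. Besides transfrag11376, 2 further lancRNAs lay opposite the gene towards its 3' end: transfrag11377, with levels of 7.54, 9.67 and 9.94, and transfrag11378, with 2.83, 8.14 and 10.1. Gaps of 231 and 129 bases separate the 3. In EE transfrag11378 had 4 reads in the library where a read weighs less and 0 in the other. Its level is thus below that of 3 reads as defined above. Together the 3 covered 67.5% of the mRNA and had summed levels of 24.0, 65.8 and 104. This was 0.369%, 0.581% and 0.773% of the sense level, a smaller relative rise than that of transfrag11376 alone. The share of transfrag11376 in that sum went from 56.8% in EE to 72.9% and 80.8%.

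Upstream of PFK, 59 bases away on the same strand, lay the mRNA of glyoxalase I (LGUL, transfrag09613), the enzyme that detoxifies methylglyoxal, a by-product of triose phosphates. Its level went from 13939 in EE to 2662 and 3831, log2 changes of -2.39 and -1.86, while PFK was higher by 0.80 and 1.05. Between these neighbours the difference of the changes is the same under each of the 3 scalings tried, which apply 1 factor per phase. A lancRNA opposite glyoxalase I (transfrag11374) reached over the first 118 bases of PFK, 3.25% of it, with levels of 223, 158 and 217. It was more abundant than the PFK antisense in every phase, and did not pass the 2-fold line (-0.50 and -0.04).

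Downstream of PFK, 1632 bases away and on the opposite strand, lay the mRNA of TOM40 (transfrag11380), the pore of the mitochondrial outer membrane translocase, with 20.3, 166 and 117. It was 2.97 and 2.47 higher. The lancRNA opposite it (transfrag09619) had 6.67, 14.3 and 18. In EE all 5 of its reads came from 1 library. The remaining neighbours were a lincRNA on the gene strand (transfrag09612; 5.58, 43.8 and 19.2) and a short intergenic RNA (transfrag11373) at 5.41, 0.27 and 0, the last 2 under the level of 3 reads.

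At GAPDH, 5 of the 8 neighbours were on the gene strand and 3 opposite it. The nearest was the mRNA of a gene matched to YGD9 (transfrag08632), which ended 66 bases upstream of GAPDH and ran 1057 bases past its own gene model towards it. Its levels were 2789, 1904 and 3220, log2 changes of -0.55 and 0.21. Its antisense (transfrag07728) had 156, 254 and 278, changes of 0.71 and 0.83, against 2.83 and 3.75 for the GAPDH antisense 1137 bases away on the same strand. Downstream, 170 bases past the end of GAPDH and on its strand, transfrag08629 had 347, 528 and 474. This lancRNA has the ends of the YJX8 gene model it opposes, over which no sense transfrag is listed. Per kb it was 0.226%, 0.549% and 0.391% of the GAPDH mRNA.

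Further downstream lay the mRNA of SUI2 (IF2A, transfrag07722), the alpha subunit of the translation initiation factor that brings the initiator tRNA, with 849, 628 and 1031. One of its antisense lancRNAs (transfrag08627) had 6.12, 44.8 and 42.5, a change of 2.68 (SE 0.52) and 2.61 (SE 0.52), while the other (transfrag08626) had 13.8, 9.51 and 23.3. A lincRNA upstream (transfrag08633) had 36.7, 44.4 and 67.9, and a short intergenic RNA (transfrag07729) was at or under the level of 3 reads in every phase. Of the lancRNAs other than the GAPDH antisense near this gene, 1 of 4 was thus past 2-fold upwards, beside 34.3% and 37.1% of all lancRNAs.

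At ENO, 7 of the 8 neighbours were on the opposite strand. Downstream of the gene, that strand was occupied by a chain that leads up to the ENO antisense: transfrag04324 opposite STB5, transfrag04325 opposite FMO1, the lincRNA transfrag04326, and then transfrag04327, with gaps of 200, 151 and 64 bases. In the order of transcription their levels were 13.2, 59.8, 7.62 and 46.5 in EE. In ME they were 58.3, 96.4, 18.4 and 613, and in LE 59.5, 184, 21.1 and 783. Per kb in LE they were 40.6, 141, 45.6 and 492, so the level stepped up at the ENO antisense. The log2 changes in ME were 2.06, 0.68, 1.17 and 3.69, and in LE 2.09, 1.61, 1.36 and 4.04. Whether these are separate RNAs or parts of 1 was not tested.

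Upstream of ENO, 1191 bases away on its strand, lay the mRNA of SPC97 (transfrag06514), a subunit of the microtubule-nucleating complex, with 3343, 1543 and 2228. Its changes of -1.11 and -0.59 were near those of ENO mRNA, -1.18 and -0.87. Its antisense (transfrag04331) had 47.8, 25.9 and 41.8, log2 changes of -0.86 (SE 0.26) and -0.19 (SE 0.24). The LE change was within its counting error, and the mapped-read shift of 1.30 and 0.77 is larger than either. A lincRNA between the genes (transfrag04330) had 19.3, 21.1 and 36.7. The 2 small antisense RNAs further upstream were under 3 reads in ME and LE.

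The rest of the pathway gives the setting. Of 12 enzymes or subunits of glycolysis looked for, aldolase and triose phosphate isomerase were not analysed here, and 10 genes were. For phosphoglycerate mutase only a homolog of PMG3 was found, and the other GAPDH gene is not among the 10. By the deposited scaling 4 of these 10 were over 2-fold higher in ME and 2 lower, with 3 and 1 in LE, against 33.6% of mRNAs higher and 31% lower in ME, and 34.2% and 37.2% in LE. All 10 have a mean level of at least 10, and among mRNAs of that abundance 45.4% were higher and 21.9% lower in ME, and 47.5% and 25.1% in LE. Their median log2 change was 0.46 and 0.70, above the -0.13 and -0.28 of all mRNAs but below the 0.70 and 0.83 of mRNAs with a mean level of at least 10. The counts moved with the scaling in both directions. Scaled by mapped reads, 6 were higher and 0 lower in each phase, while scaled by the summed level without the 100 highest transfrags, 2 were higher and 2 lower in ME, and 1 was higher and 3 were lower in LE.

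In the upper part, hexokinase (HXK, transfrag09803) had levels of 1680, 3791 and 3148 and glucose-6-phosphate isomerase (G6PI, transfrag05577) 2519, 5902 and 4480, both over 2-fold higher in ME. Glucokinase (HXKG, transfrag00877) was at 1532, 1187 and 1054. The other PFK subunit (K6PF1, transfrag06946) had 7442, 15554 and 18786. Per kb its levels were 1908, 3987 and 4816, beside 1792, 3115 and 3708 for the subunit described here, and its log2 changes were 1.06 and 1.34, beside 0.80 and 1.05.

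In the lower part, phosphoglycerate kinase (PGK, transfrag06296) had log2 changes of -1.98 in ME and -1.43 in LE (165744, 42094 and 61544). It was the only one of the 10 still lower in both phases when scaled by mapped reads (-0.67 and -0.66). A homolog of phosphoglycerate mutase (PMG3, transfrag07407) was at 332, 363 and 493. Pyruvate kinase (KPYK, transfrag10433), which makes pyruvate and ATP, was higher by 3.27 and 3.19 (645, 6240 and 5882). By the deposited scaling, GAPDH, PGK and ENO, the 3 most abundant of the 10, were thus the lower-part genes analysed here with ME and LE levels below that of EE.

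**Figure D4:**
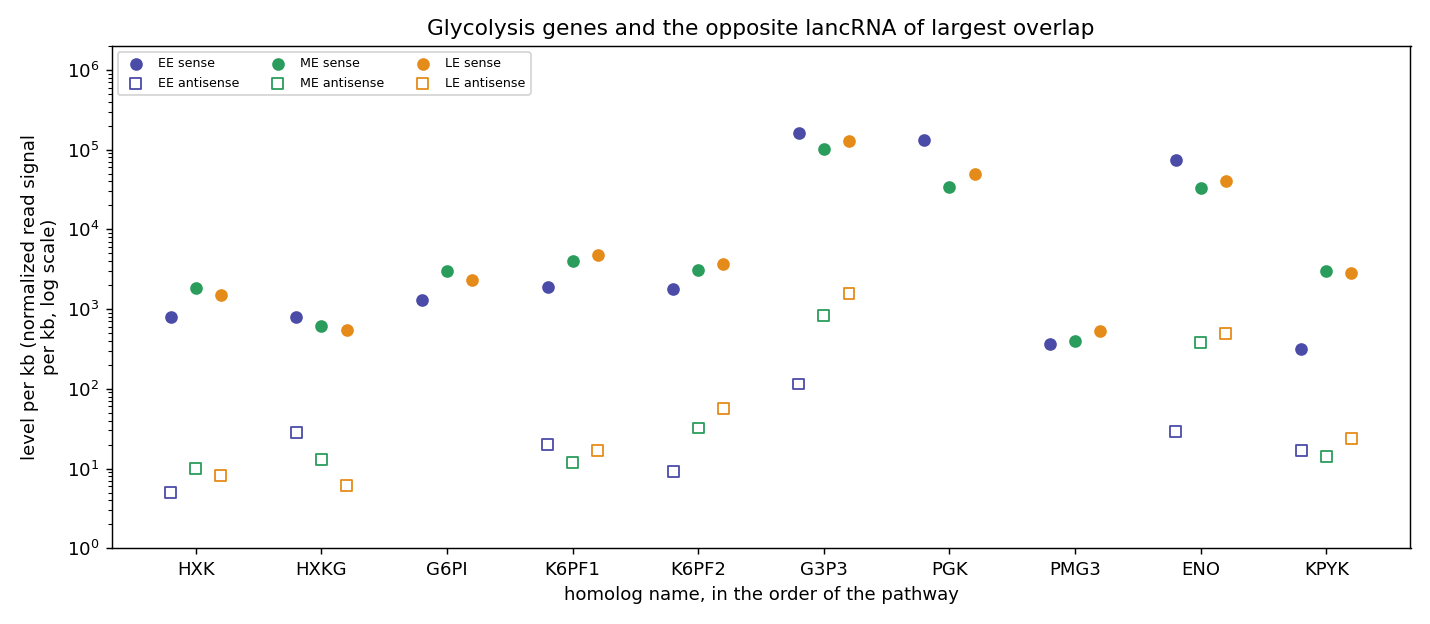
Level per kb (log axis) of 10 glycolysis genes in pathway order in EE, ME and LE (filled circles), and of the lancRNA with the largest overlap opposite each (open squares; G6PI, PGK and PMG3 have none). In LE the antisense of K6PF2 (PFK) was at 56.5, that of G3P3 (GAPDH) at 1555 and that of ENO at 492 per kb. The other 4 lay between 6.18 and 23.7.

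A lancRNA lay opposite 7 of the 10 genes, beside 32.6% of all mRNAs and 43% of mRNAs whose mean level was at least 10. The 10 genes lie far above that level, and of the 20 highest mRNAs in each phase 18 had an opposite lancRNA. A lancRNA covered at least 50% of the mRNA at 2 of the 10, GAPDH and ENO, beside 11.6% and 14.3%. Taking the lancRNA of largest overlap at each of the 7, those of PFK, GAPDH and ENO were over 2-fold higher in ME and LE and the other 4 were not. These 3 of 7 stand beside 34.3% (ME) and 37.1% (LE) of all lancRNAs. Of lancRNAs with a mean level of at least 10, which not all 7 reach, it was 51.8% and 58.1%. The other PFK subunit had 3 lancRNAs opposite it. The one of largest overlap (transfrag04760, over 15.9% of the mRNA) had 12.2, 7.42 and 10.4, changes of -0.65 and -0.21. The mRNA was higher by 1.06 and 1.34, and the 3 lancRNAs differed in their ratio to it. On the log2 scale that ratio changed by -1.79 and -1.56 for transfrag04760, and by -2.30 and -3.19 for transfrag04759. For transfrag04758 it changed by 0.39 and -0.14, so this lancRNA was higher along with the mRNA. The lancRNA of largest overlap at pyruvate kinase (transfrag12168) had 10.8, 9.24 and 15.3, and that at glucokinase (transfrag00437) 13.6, 6.15 and 2.95. At hexokinase it (transfrag11561) had 1.33, 2.71 and 2.16, with the EE level under that of 3 reads.

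Of the reactions that branch off or run backwards, 4 of 5 genes were over 2-fold higher in ME and in LE, and none lower, beside 33.6% and 34.2% of all mRNAs higher, or 45.4% and 47.5% of mRNAs whose mean level was at least 10. Scaled by the summed level it was 4 in ME and 3 in LE, and without the 100 highest transfrags in the sum 3 in both. The mRNA of fructose-bisphosphatase (F16P, transfrag09638), which reverses the PFK step in gluconeogenesis, had a level of 1.41 in EE, under that of 3 reads, then 38.3 and 63.0. Set against the level of 3 reads, ME was at least 9.58-fold higher and LE at least 15.8-fold. Pyruvate carboxylase (PYC2, transfrag05030) had 607, 3886 and 5955, the glycerol-phosphate dehydrogenase GPD1 (transfrag07412) 664, 2679 and 2630, and the trehalose-phosphate synthase TPS1 (transfrag01645) 3790, 4380 and 6654.

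Pyruvate decarboxylase (PDC1, transfrag10819), which leads pyruvate to ethanol, had 9537, 21290 and 21405. The lancRNA opposite it (transfrag12574) had 24.4, 80.5 and 145, changes of 1.68 and 2.53, close to the 1.74 and 2.54 of the PFK antisense.

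Among regulators, TYE7 (transfrag10440), an activator of glycolytic genes in *Saccharomyces cerevisiae*, had an mRNA level of 18057, 3807 and 4274, log2 changes of -2.25 and -2.08. The lancRNA opposite it (transfrag12175) was higher by 2.50 and 2.92 (14.7, 88.0 and 118). GCR1, another such activator, was matched by 2 gene models with unlike values: transfrag03443 had 564, 926 and 925, and the short transfrag01045 59.3, 12.3 and 6.78. RAG8, a casein kinase needed for expression of a glucose transporter gene in *Kluyveromyces lactis*, was split into 2 mRNA transfrags that moved in opposite directions (transfrag11499 at 127, 47.7 and 19.8, transfrag11500 at 386, 934 and 1165). No direction is given for it.

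The transfrags most like each member, by the distance of the log2 changes in ME and LE among 294 mRNAs with a level of at least 1000 or 858 lancRNAs with a level of at least 10 in each phase, were as follows. For PFK mRNA the nearest was transketolase (TKT1, transfrag01611), an enzyme of the pentose phosphate pathway, with 4937, 8795 and 10479 (distance 0.0507), followed by transfrag23880, which is not annotated here. For the PFK antisense they were transfrag19889 (19.4, 69.2 and 117) and the PDC1 antisense described above (distance 0.0575). For GAPDH mRNA they were transfrag18819 and transfrag04145, matched to YOL19. For its antisense they were transfrag30124 (32.5, 237 and 435) and transfrag07839 (65.6, 482 and 920). For ENO mRNA they were transfrag31720 and transfrag14162, the latter with 247092, 100154 and 129417. For its antisense they were transfrag10799 opposite ESS1 (10.3, 138 and 198) and transfrag06361 opposite ARN1 (15.0, 189 and 255). Likeness over 2 changes that share the EE libraries is a description only.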

How the data were processed

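RNA of 6 libraries (2 per growth phase) was sequenced after rRNA depletion with a strand-specific dUTP protocol, and the authors mapped the reads with CLC Genomics Workbench, the notes naming CASAVA 1.4 and DESeq. The deposited values are a read signal per transfrag, divided by DESeq size factors and averaged by the authors over the libraries of each phase. They are not scaled by length, and depth per library is not shown. Transfrags were joined over the phases, divided at gene boundaries and, in the file, have a mean level of at least 1.34.

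Because phase means hold no replicate error, no test was made. The size factors were recovered from the steps between low levels (EE 0.707 and 0.375, ME 1.85 and 1.37, LE 1.70 and 1.26), after the search was tested on simulated data, and gave the reads, the counting errors (Poisson) and the level of 3 reads. They cover counting error only, and reads are not independent molecules after PCR. A fold change is log2((level + 1) in one phase over (level + 1) in another), which understates changes of low levels, and a call is 2-fold. Ratios used no pseudocount. Alternatives were a pseudocount of 0 or 10, a mean level of at least 10, 4-fold, levels per kb, 3 scalings, the opposite-strand share, and flanks of 1 and 5 kb.

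Genes were matched by the homolog names of the study's gene annotation (1998 gene models held here), and gene order also by RefSeq (assembly Kmar_1.0). Named were all members, the glycolysis, branch and regulator lists, the mRNAs and lancRNAs within 3 kb and, per member, the 2 most alike of its class; other transfrags were named after their values were seen. Members and lists were chosen with earlier results of these data known. Scripts ran in Python 3.11.15 with pandas 2.3.3 (tables), NumPy 2.4.6 (arithmetic) and Matplotlib 3.10.9 (plots).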

Additional observations from a re-analysis of the deposited data

How the results depend on the processing

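Of 236 values recomputed under an alternative, 157 kept their direction and call or stayed within 1.5 times, and 15 changed sign. No paired analysis was possible because the file holds means over the libraries of each phase, and leaving out each replicate was not run for the same reason. Scaled by the summed level, PFK mRNA changed by 1.06 (ME) and 0.86 (LE) and ENO mRNA by -0.92 and -1.05. Without the 100 highest transfrags in the sum, PFK mRNA changed by 0.43 and ENO mRNA by -1.49 in LE. By mapped reads, PFK mRNA changed by 2.10, GAPDH mRNA by 0.63 and ENO mRNA by 0.12 in ME, and GAPDH mRNA by 0.42 in LE. From ME to LE the 3 scalings, in the order summed level, summed level without the 100 highest and mapped reads, gave -0.20, -0.18 and -0.29 for PFK mRNA, -0.12, -0.10 and -0.21 for GAPDH mRNA, -0.13, -0.11 and -0.22 for ENO mRNA, and -0.10, -0.08 and -0.19 for the ENO antisense; each scaling adds 1 constant per phase. The larger opposite-strand share, chosen after seeing the data, gave the PFK antisense 0.72 in ME against EE and 1.31 in LE against ME, and the GAPDH antisense 1.10 in LE against ME. It put the antisense at 0.127%, 0.126% and 0.273% of the sense level at PFK, at 0% (EE) and 0.489% (ME) at GAPDH and at 0% (EE) at ENO; with nothing left in EE, no change against EE was computed there.

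Per kb, ranks were 221, 72 and 92 for PFK mRNA, 2551, 1240 and 857 for its antisense, 1 in EE for GAPDH mRNA, and 1078 (EE) and 58 (ME) for the ENO antisense, and the PFK antisense was 0.512%, 1.03% and 1.52% of its mRNA. Among all transfrags the antisense of PFK ranked 5316, 3501 and 2884, that of GAPDH 1640, 648 and 506, and that of ENO 2671, 834 and 906. Opposite lancRNAs that cover at least 50% of the mRNA were found at 2 glycolysis genes instead of 7. Within 1 kb, 4, 2 and 3 transfrags lay near PFK, GAPDH and ENO, and within 5 kb 14 near GAPDH and 13 near ENO.

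At 4-fold, 20.4% of mRNAs were higher and 9.33% lower in ME, and 22.6% and 15.1% in LE. The same line gave 16.8% and 10.5% of lancRNAs in ME, and 19.9% and 13.6% in LE, and 0 sense members in either direction. Of the 3 antisense members, 2 (GAPDH and ENO, not PFK) were 4-fold higher in ME and all 3 in LE. By mapped reads 51.7% of mRNAs were higher and 8.63% lower in ME and 23.5% lower in LE, with 1 sense member higher and 0 lower in ME. By the same scaling 59.0% of lancRNAs were higher and 10.5% lower in ME. With a mean level of at least 10, 51.8% of lancRNAs were higher and 12.5% lower in ME, and 58.1% and 12.4% in LE. Few EE reads limit the PFK antisense most. With phase means the spread between cultures is unknown in ME and LE and, above a level of 12, in EE.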

Other observations

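Around ENO the part of the study's annotation held here differs from RefSeq's gene order, which is that of another strain. In RefSeq the copper transporter gene CTR2 stands between ENO and FMO1, while the 1998 gene models held here include 0 there. The annotation is held in part only, so this does not show that the study lacked the gene. The lincRNA transfrag04326 (7.62 in EE, 18.4 in ME and 21.1 in LE) lies in that interval. Whether this transfrag belongs to CTR2 was not tested. At PFK, glyoxalase I (GLO1), INP1 and TOM40 stand beside the gene in RefSeq too, as does SUI2 at GAPDH. Over INP1, which follows PFK, and over FMO1, which follows the ENO interval, no sense transfrag is listed.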
